A study of Mus musculus with 12 samples.

Results

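The genes described here are the FoxO transcription factors Foxo1, Foxo3 and Foxo4 and 7 genes known as their targets or as stress and atrophy genes of muscle, Fbxo32, Trim63, Sesn1, Sesn3, Cited2, Cdkn1b and Trp53inp1. They were taken from an array table by gene symbol, and all 10 were found among 19505 genes, each with 1 probe set. There were 12 heart samples from mice, in 3 groups of 4. DM_AngIV mice had been made diabetic with streptozotocin, a toxin of insulin-producing beta cells, and then received high-dose angiotensin IV by infusion (2.88 mg/kg/day, weeks 8 to 24), a peptide cut from angiotensin II. DM mice had been made diabetic in the same way and carry the label untreated. Diabetic mice of either group had received streptozotocin for 5 days and counted as diabetic from a fasting glucose of 16.7 mM or more, read after 2 weeks. NC mice, the negative controls, had received the vehicle for 5 days. All 12 samples are myocardium labelled 6 months, and the labels used here name neither strain nor sex. Angiotensin IV was not given to mice without diabetes, so its action outside diabetes was not measured. The title of the study names FoxO1 as its theme, with autophagy, apoptosis and fibrosis.

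FoxO proteins are forkhead transcription factors that insulin and growth factors hold in check. Akt, activated by the insulin receptor through PI3 kinase, phosphorylates them, and 14-3-3 proteins then keep them out of the nucleus. When insulin is low they enter the nucleus and activate genes for protein breakdown, autophagy, growth arrest and stress defence. This control acts on the protein, so the mRNA of a FoxO factor does not report its activity. In heart and skeletal muscle the best known FoxO targets are the ubiquitin ligases atrogin-1 and MuRF1, which mark muscle proteins for the proteasome.

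All 10 markers of ventricular muscle were above background on all 12 arrays. Background was taken as 4.96 on the log2 scale, the 95th percentile of 246 reporter control probe sets. Atrial muscle differed between the arrays. The atrial myosin light chain Myl7 was above background on DM replicates 1, 2 and 4 and on NC replicates 1 and 3, but on no DM_AngIV array. Arrays correlated across all genes with r between 0.9765 and 0.9902. These are bulk tissue values, in which fewer cells of a type and less RNA per cell cannot be told apart.

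In DM_AngIV hearts 4 of the 10 genes, Foxo3, Fbxo32, Sesn1 and Cited2, rose relative to NC hearts past a limma adjusted p of 0.05 over all genes, and 0 fell. Their mean levels were between 1.46 and 2.32 times those of NC. In this comparison 1.02% of all 19505 genes passed, 0.728% of them higher. Relative to DM hearts, 0 of the 10 genes passed in DM_AngIV hearts, and 0% of all genes did so. In DM hearts 0 of the 10 passed relative to NC, where 0.0154% of all genes did. At an unadjusted p below 0.05, 8 of the 10 genes differed in DM_AngIV against NC (14.6% of all genes), 7 of them higher (8.11%) and 1 lower (6.53%). Relative to DM it was 6 of 10 in DM_AngIV (7.48%), 5 higher (3.98%) and 1 lower (3.5%). In DM against NC it was 8 of 10 (8.95%), 7 higher (4.69%) and 1 lower (4.26%). Trp53inp1, which was not above background on any array, is counted among the 7 higher genes against NC in either diabetic group. The 3 comparisons share arrays, so their counts are not independent of each other.

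**Figure D1:**
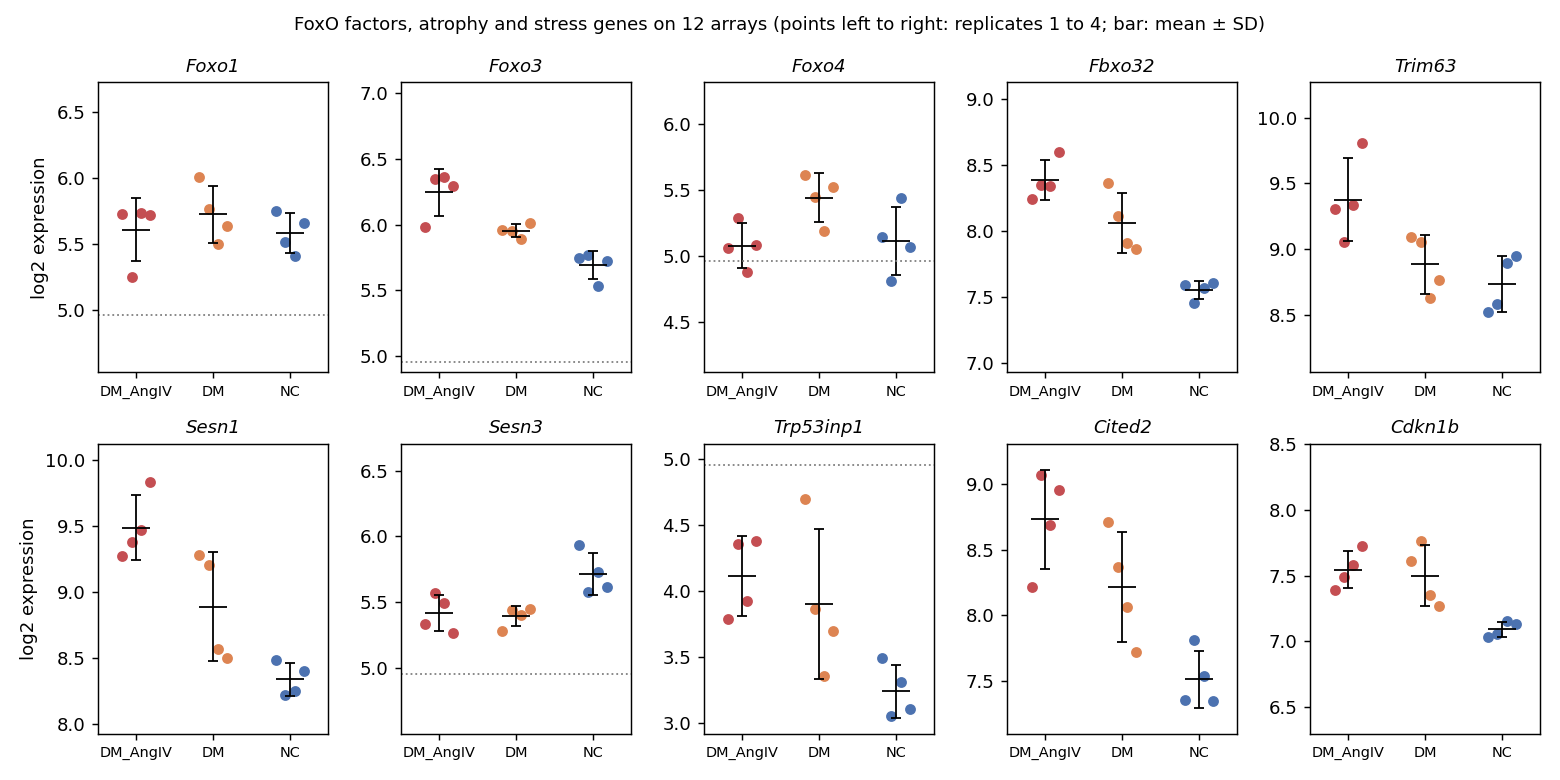
Log2 expression of the 10 genes (vertical axis, a span of equal size in each panel) in DM_AngIV, DM and NC hearts, with 1 point per array and the mean ± SD of 4 arrays as a bar. The dotted line marks the background of 4.96. Fbxo32, Sesn1, Cited2 and Foxo3 are lowest in NC, Foxo1 overlaps in all groups, and Trp53inp1 lies under the background line.

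Foxo1, the factor in the title of the study, lies on chromosome 3 from 52268337 to 52350109 (GRCm38.p6, as are all positions here). Its log2 level was 5.72, 5.25, 5.73 and 5.72 in DM_AngIV replicates 1 to 4, against 6.00, 5.76, 5.49 and 5.64 in DM and 5.74, 5.51, 5.41 and 5.66 in NC. The 3 groups overlapped, with the highest value in DM replicate 1 and the lowest in DM_AngIV replicate 2. The log2 difference was 0.02 ± 0.14 (SE) in DM_AngIV against NC (limma adjusted p = 0.965), with a 95% interval of -0.27 to 0.32. It was -0.12 in DM_AngIV against DM (interval -0.42 to 0.18, limma adjusted p = 0.871) and 0.14 in DM against NC (interval -0.16 to 0.44, limma adjusted p = 0.826). These intervals are not adjusted for the number of genes, and the widest bounds they give are 0.44 upward and -0.42 downward.

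Foxo3 is the family member most studied as the driver of atrophy genes in muscle, and lies on chromosome 10 from 42181845 to 42276695. It reached 5.98, 6.34, 6.36 and 6.29 in DM_AngIV hearts, against 5.74, 5.77, 5.54 and 5.73 in NC hearts, with no overlap. It rose by 0.55 ± 0.11 (SE) on the log2 scale, 1.46-fold (limma adjusted p = 0.0236). DM hearts stood between them at 5.96, 5.95, 5.89 and 6.01, a narrow range that lay above every NC array and overlapped DM_AngIV through DM_AngIV replicate 1 alone. The difference was 0.29 in DM_AngIV against DM (interval 0.06 to 0.52, limma adjusted p = 0.620) and 0.26 in DM against NC (interval 0.03 to 0.49, limma adjusted p = 0.488). The call of Foxo3 was close to the threshold. It was lost without DM_AngIV replicates 2, 3 or 4 or NC replicates 1, 2, 3 or 4, with limma adjusted p between 0.0515 and 0.0881 and differences between 0.50 and 0.58.

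Foxo4, on chromosome X from 101254261 to 101260873, had another order of the groups. Its levels were 5.07, 5.29, 4.88 and 5.09 in DM_AngIV, against 5.62, 5.45, 5.19 and 5.52 in DM and 5.14, 4.81, 5.44 and 5.07 in NC. DM was highest on average, and DM_AngIV replicate 3 and NC replicate 2 were under the background. The difference was -0.36 in DM_AngIV against DM (interval -0.66 to -0.06, limma adjusted p = 0.620) and 0.33 in DM against NC (interval 0.03 to 0.63, limma adjusted p = 0.511). Against NC, DM_AngIV differed by -0.03 (interval -0.33 to 0.26, limma adjusted p = 0.944). The mRNA of the 3 factors thus did not share 1 pattern, and only that of Foxo3 passed in any comparison.

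Fbxo32 encodes atrogin-1, the muscle F-box protein that gives an SCF ubiquitin ligase its substrates, and lies on chromosome 15 from 58175879 to 58214892. Its levels were 8.25, 8.35, 8.34 and 8.60 in DM_AngIV, against 8.36, 8.11, 7.91 and 7.86 in DM and 7.59, 7.46, 7.57 and 7.61 in NC. NC hearts were tightly grouped, and every diabetic heart, treated or not, was above them. Fbxo32 rose by 0.83 ± 0.12 (SE) in DM_AngIV against NC, 1.78-fold (limma adjusted p = 0.00699, rank 15 of all genes). In DM against NC the groups did not overlap either, with a difference of 0.51 ± 0.12 (interval 0.25 to 0.77) that did not pass over all genes (limma adjusted p = 0.201). In DM_AngIV against DM it was 0.32 (interval 0.06 to 0.58, limma adjusted p = 0.620), and DM replicate 1 lay within the DM_AngIV range.

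Trim63 encodes MuRF1, a RING ubiquitin ligase that binds the sarcomere and targets myosin and other filament proteins. It lies on chromosome 4 from 134315120 to 134329629. Its promoter is shown because it carries the FoxO consensus GTAAACA. The sequence runs 5′ to 3′ along the gene from 250 bases before the start to 50 after, on the plus strand (chr4:134314870-134315169), and the capitals mark the match, read here as its reverse complement TGTTTAC at bases -194 to -188.
Trim63: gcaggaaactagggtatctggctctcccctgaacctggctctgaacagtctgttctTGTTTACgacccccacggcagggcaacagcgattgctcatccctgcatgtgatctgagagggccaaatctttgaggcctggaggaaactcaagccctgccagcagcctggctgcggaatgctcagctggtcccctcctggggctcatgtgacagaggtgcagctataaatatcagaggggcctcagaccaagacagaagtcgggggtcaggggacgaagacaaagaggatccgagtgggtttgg
Trim63 was at 9.31, 9.06, 9.34 and 9.81 in DM_AngIV, against 9.09, 9.06, 8.63 and 8.77 in DM and 8.53, 8.58, 8.89 and 8.95 in NC. DM_AngIV hearts were above every NC heart, while DM hearts overlapped with either group. The log2 difference was 0.64 ± 0.16 (SE) in DM_AngIV against NC, and missed the threshold over all genes (limma adjusted p = 0.0727). It was 0.49 (interval 0.15 to 0.83, limma adjusted p = 0.600) in DM_AngIV against DM and 0.15 (interval -0.19 to 0.49, limma adjusted p = 0.846) in DM against NC. With dim genes left out, so that fewer genes were tested, Trim63 passed in DM_AngIV against NC (limma adjusted p = 0.0323 among genes above the median and 0.0292 among genes above background). In these fits 504 and 567 of the tested genes passed, against 198 with dim genes kept.

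Sesn1 encodes sestrin 1, a stress-induced protein that restrains the growth kinase mTORC1 and is a target of FoxO factors and of p53. It lies on chromosome 10 from 41810574 to 41908436, with a pair of start sites in RefSeq. The promoter of the upstream start (chr10:41810324-41810623, plus strand) holds GTAAACA as its reverse complement at bases 23 to 29 after the start. That of the downstream start (chr10:41887189-41887488, plus strand) holds only the shorter core AAACA, as TGTTT, at bases -168 to -164 and -32 to -28. Capitals mark these letters.
Sesn1, upstream start: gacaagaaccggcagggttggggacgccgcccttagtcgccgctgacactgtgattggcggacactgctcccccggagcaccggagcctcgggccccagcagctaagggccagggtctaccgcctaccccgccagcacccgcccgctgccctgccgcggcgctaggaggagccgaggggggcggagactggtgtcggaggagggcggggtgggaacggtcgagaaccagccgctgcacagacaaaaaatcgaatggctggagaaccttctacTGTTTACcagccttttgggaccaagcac
Sesn1, downstream start: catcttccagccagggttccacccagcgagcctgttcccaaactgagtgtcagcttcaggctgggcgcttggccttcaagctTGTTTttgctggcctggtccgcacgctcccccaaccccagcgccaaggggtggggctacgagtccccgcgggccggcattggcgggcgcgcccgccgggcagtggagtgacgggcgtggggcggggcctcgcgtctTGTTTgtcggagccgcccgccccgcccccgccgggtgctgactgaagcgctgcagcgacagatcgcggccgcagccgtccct
Sesn1 reached 9.27, 9.37, 9.47 and 9.83 in DM_AngIV, against 9.28, 9.20, 8.56 and 8.49 in DM and 8.48, 8.22, 8.25 and 8.40 in NC. DM hearts fell into a high pair, replicates 1 and 2, and a low pair, replicates 3 and 4, which lay just above NC. Sesn1 rose by 1.15 ± 0.18 (SE) in DM_AngIV against NC, 2.22-fold (limma adjusted p = 0.00834). In DM_AngIV against DM the difference was 0.60 ± 0.18 (interval 0.23 to 0.98, limma adjusted p = 0.513), and in DM against NC 0.55 ± 0.18 (interval 0.17 to 0.92, limma adjusted p = 0.351).

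Sesn3, a sestrin family member and FoxO target that supports Akt activity, did not follow Sesn1. It lies on chromosome 9 from 14276301 to 14326134. Its levels were 5.34, 5.57, 5.49 and 5.27 in DM_AngIV, against 5.29, 5.44, 5.40 and 5.45 in DM and 5.94, 5.58, 5.73 and 5.62 in NC. Every NC heart was above every diabetic heart, by little. The difference was -0.30 ± 0.11 (SE) in DM_AngIV against NC (interval -0.53 to -0.06, limma adjusted p = 0.219) and -0.32 ± 0.11 in DM against NC (interval -0.55 to -0.09, limma adjusted p = 0.390). Between DM_AngIV and DM it was 0.02 (interval -0.21 to 0.26, limma adjusted p = 0.976).

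Trp53inp1 encodes a p53-induced protein with roles in cell death and autophagy, and lies on chromosome 4 from 11156441 to 11174379. It was not above background on any array, so its values carry no fold. The readings were 3.79, 4.36, 3.93 and 4.38 in DM_AngIV, against 4.70, 3.86, 3.36 and 3.70 in DM and 3.49, 3.05, 3.31 and 3.10 in NC. DM_AngIV readings were above all NC readings, and DM spanned both. It did not pass in DM_AngIV against NC (limma adjusted p = 0.0807), in DM_AngIV against DM (0.855) or in DM against NC (0.390). Without DM replicate 1, an array of neither group compared, it passed in DM_AngIV against NC (limma adjusted p = 0.0162). In that fit 302 of all genes passed, against 198 with all arrays.

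Cited2 encodes a coactivator-binding protein that limits hypoxia-induced transcription by competing with HIF-1 alpha for CBP and p300. It lies on chromosome 10 from 17723228 to 17725674. Its promoter (chr10:17722978-17723277, plus strand) had no GTAAACA but held the core AAACA at bases -84 to -80, reversed, and at -6 to -2. Capitals mark these.
Cited2: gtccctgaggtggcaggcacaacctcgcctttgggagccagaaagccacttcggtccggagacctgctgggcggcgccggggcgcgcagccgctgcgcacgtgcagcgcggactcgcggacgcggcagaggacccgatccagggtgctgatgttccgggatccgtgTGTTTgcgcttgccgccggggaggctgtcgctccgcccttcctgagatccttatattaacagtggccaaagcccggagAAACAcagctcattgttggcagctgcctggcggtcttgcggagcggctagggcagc
Cited2 had the largest rise of the 10 genes in DM_AngIV against NC, at 1.21 ± 0.21 (SE) on the log2 scale, 2.32-fold (limma adjusted p = 0.0126). Its levels were 8.22, 9.06, 8.68 and 8.95 in DM_AngIV, against 8.71, 8.37, 8.07 and 7.73 in DM and 7.36, 7.81, 7.54 and 7.35 in NC. All DM_AngIV hearts were above all NC hearts, and DM replicate 4 lay within the NC range. The difference was 0.51 in DM_AngIV against DM (interval 0.07 to 0.95, limma adjusted p = 0.629) and 0.70 in DM against NC (interval 0.26 to 1.14, limma adjusted p = 0.308).

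Cdkn1b encodes p27, an inhibitor of cyclin-dependent kinases that holds cells out of the cycle, and lies on chromosome 6 from 134920401 to 134925525. It was at 7.39, 7.49, 7.58 and 7.72 in DM_AngIV, against 7.61, 7.77, 7.35 and 7.27 in DM and 7.04, 7.05, 7.15 and 7.13 in NC. NC hearts were below all diabetic hearts, and the diabetic groups covered nearly the same range. The difference was 0.45 ± 0.12 (SE) in DM_AngIV against NC (limma adjusted p = 0.0852) and 0.41 ± 0.12 in DM against NC (limma adjusted p = 0.308), and neither passed. In DM_AngIV against DM it was 0.05 (interval -0.21 to 0.30, limma adjusted p = 0.954). Like Trim63, it passed in DM_AngIV against NC when dim genes were left out (limma adjusted p = 0.0337 among genes above the median and 0.0300 among genes above background). Of the tested genes 504 and 567 passed in these fits, against 198 with dim genes kept.

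**Figure D2:**
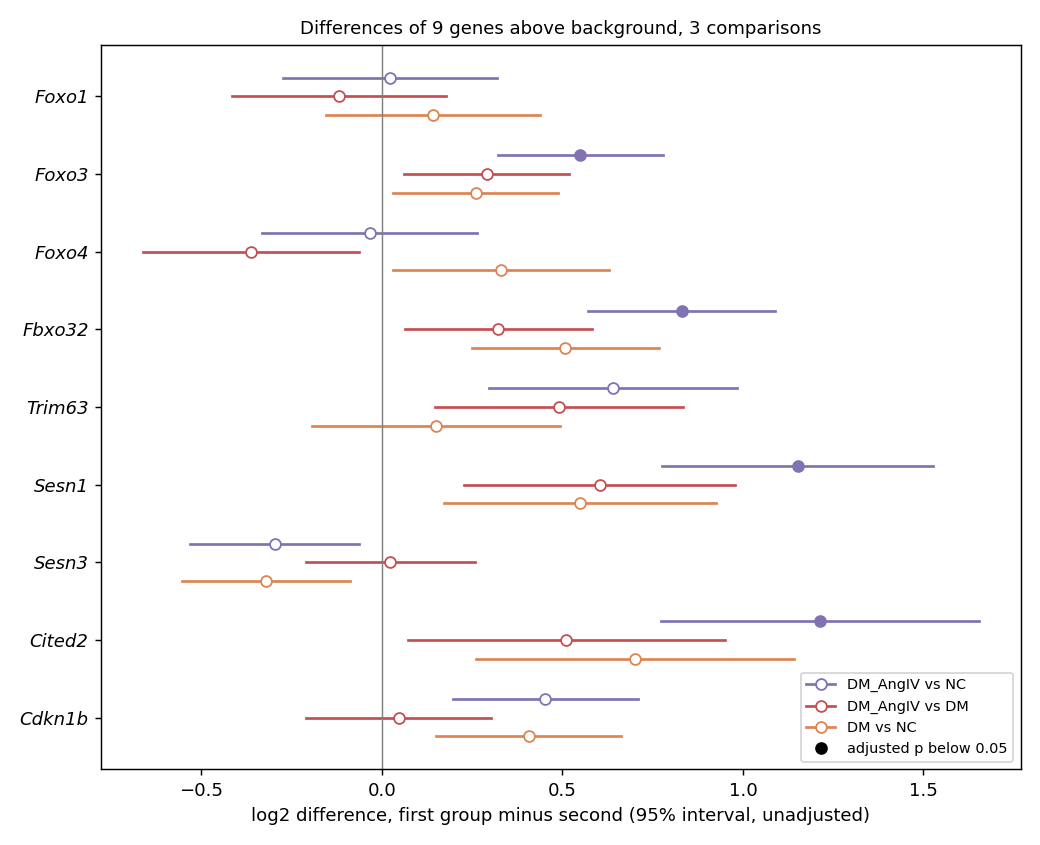
Log2 differences (horizontal axis, first group minus second) with 95% intervals for the 9 genes that were above background on at least 1 array, in 3 comparisons. Filled points passed over all genes: Foxo3, Fbxo32, Sesn1 and Cited2 in DM_AngIV against NC. Sesn3 lies left of 0 against NC, and Foxo1 has small values in every comparison.

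As a list, the 10 genes had a median log2 difference of 0.59 in DM_AngIV against NC, where the median of all genes was -0.0070. It was 0.25 in DM_AngIV against DM and 0.37 in DM against NC, with medians of all genes of -0.000708 and -0.00101. Without Trp53inp1, which was not above background, the medians were 0.55, 0.29 and 0.33. The difference was positive for 8 of 10 genes in DM_AngIV against NC (48.5% of all genes), 8 of 10 in DM_AngIV against DM (49.8%) and 9 of 10 in DM against NC (49.8%). In DM_AngIV against NC the groups did not overlap for 8 of 10 genes (9.83% of all genes), 7 higher (5.63%) and 1 lower (4.2%). Between DM_AngIV and DM this held for 0 of 10 (5.01%), where all genes had 2.81% higher and 2.2% lower. In DM against NC it held for 5 of 10 (4.54%), 4 higher (2.45%) and 1 lower (2.09%). The dim Trp53inp1 is among the 7 in DM_AngIV against NC and among the positive differences in each comparison. A test for any difference among the 3 groups (limma moderated F) passed for Fbxo32 (adjusted p = 0.0223), Sesn1 (0.0285) and Cited2 (0.0406), where 0.385% of all genes passed. Foxo3 had 0.0707 in that test. Of the 10 genes, it passed for Fbxo32 alone without DM_AngIV replicate 2 (34 of all genes, against 75 with all arrays) and for 0 without DM_AngIV replicates 3 or 4 or without any of NC replicates 1 to 4 (14 to 27 of all genes).

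The order of the group means was DM_AngIV, DM, NC, from high to low, for Foxo3, Fbxo32, Trim63, Sesn1, Cited2 and Cdkn1b, and for the dim readings of Trp53inp1. Neighbours in this order did not differ past the threshold for any of them. Foxo1 and Foxo4 were highest in DM, and Sesn3 was highest in NC.

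Over the 12 arrays some of the genes that were high in DM_AngIV went up and down together. A difference between groups that genes share raises their r over all arrays. Fbxo32 and Sesn1 had a Pearson r of 0.973, and 0.928 for deviations from the group means. Cdkn1b and Sesn1 had 0.887, and 0.880 within groups. Foxo3 correlated with Fbxo32 at 0.854 over all arrays but at 0.184 within groups, and Foxo1 with Fbxo32 at 0.283 over all arrays and 0.557 within groups. These r values describe 12 arrays from 3 groups that share their scaling, and no test was made of them.

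Genes whose pattern was most like that of Fbxo32 over the 12 arrays, out of 6888 genes above background on all of them, were Adcy6 (r = 0.975), Cnksr3 (0.967) and Zbtb16 (0.967). Adcy6 encodes an adenylyl cyclase of heart muscle, and Zbtb16 the transcription factor PLZF, which glucocorticoids induce. Adcy6 averaged 8.84 ± 0.14 in DM_AngIV, 8.32 ± 0.32 in DM and 7.85 ± 0.14 in NC (SD, n = 4 each). Within groups r with Fbxo32 was 0.915 for Adcy6, 0.831 for Cnksr3 and 0.841 for Zbtb16. For Foxo1 the nearest were Amotl1 (r = 0.791), the metalloprotease gene Adam19 (0.764) and the sialyltransferase gene St6galnac2 (0.759). Correlated by rank (Spearman), Amotl1 had 0.818 and St6galnac2 0.727, but Adam19 only 0.497. Their group means differed little, as Amotl1 shows, with 5.79 ± 0.06 in DM_AngIV, 5.92 ± 0.20 in DM and 5.75 ± 0.18 in NC. These genes were picked as the highest r among those 6888 genes, so r has no p here.

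**Figure D3:**
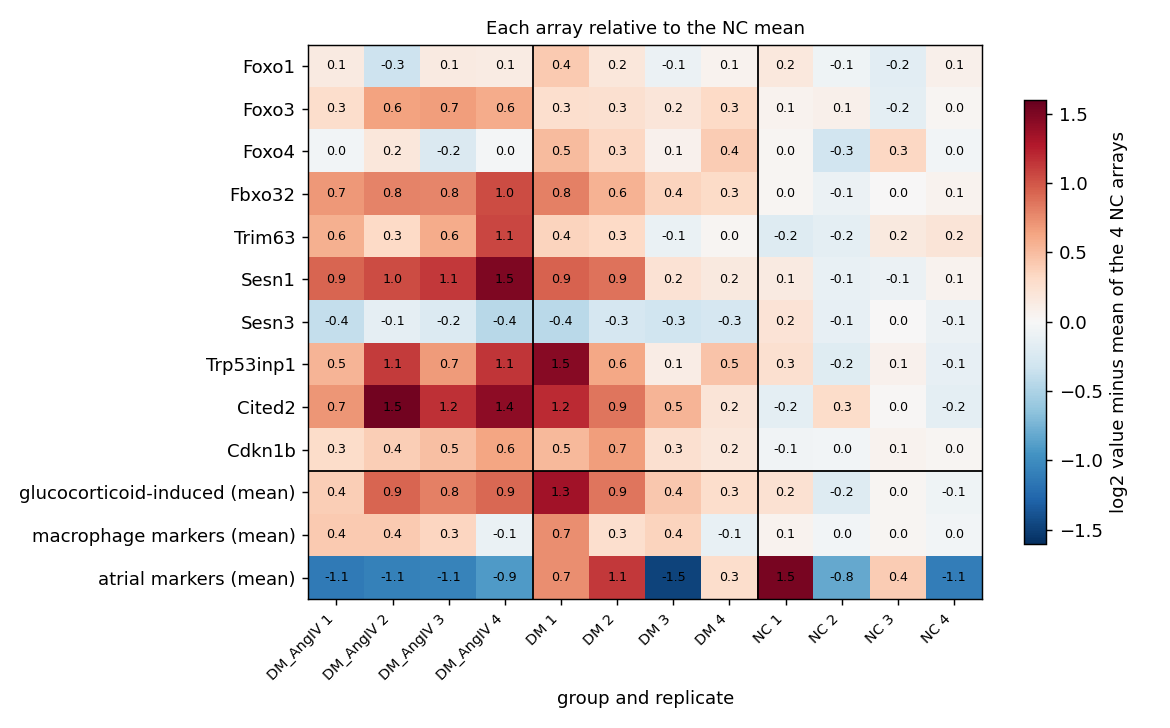
Log2 value of each array minus the mean of the 4 NC arrays (colour and printed number), for the 10 genes and for the mean of 3 gene lists, with arrays of DM_AngIV, DM and NC from left to right. DM replicates 1 and 2 are higher than replicates 3 and 4 for Fbxo32, Trim63, Sesn1, Cited2 and Cdkn1b and for the glucocorticoid-induced and atrial gene means. The atrial mean is low on all DM_AngIV arrays and varies among NC arrays.

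A list of glucocorticoid-induced genes was set beside the 10 genes. Glucocorticoids, which rise in stress and fasting, are known to induce Fbxo32 and Trim63 in muscle. The mean log2 level of 14 glucocorticoid-induced genes was 7.28, 7.82, 7.70 and 7.81 in DM_AngIV, against 8.23, 7.74, 7.33 and 7.17 in DM and 7.13, 6.68, 6.93 and 6.82 in NC. All diabetic hearts were thus above all NC hearts, and the order of the DM hearts was the order seen for Fbxo32. The order within DM_AngIV and within NC was not that of Fbxo32, which was highest in replicate 4 of either group. In DM_AngIV against DM the median difference of the list was 0.03, where that of the 10 genes was 0.25. Of the 14 genes, 4 rose and 1 fell in DM_AngIV against NC (0.728% and 0.287% of all genes), while 0 passed in the other comparisons. Zbtb16 rose by 2.17 ± 0.28 (SE; limma adjusted p = 0.00317) and Fkbp5, a chaperone of the glucocorticoid receptor, by 2.55 ± 0.47 (0.0192). The metallothioneins Mt2 and Mt1 rose by 1.21 (limma adjusted p = 0.0264) and 0.70 (0.0236). The call of Fkbp5 was lost without NC replicate 2 or DM_AngIV replicates 2, 3 or 4, and that of Mt1 without NC replicates 1, 3 or 4 or DM_AngIV replicates 2 or 4 (limma adjusted p between 0.0523 and 0.0806 for these). With a trended robust variance prior Fkbp5 had a limma adjusted p of 0.0637. Dusp1, a phosphatase gene that also responds to other stimuli, fell by 0.71 (limma adjusted p = 0.0236). The calls of Mt2 and Dusp1 in DM_AngIV against NC were not followed through the alternative fits. With the mean of this list as a covariate, 0 of the 10 FoxO and atrophy genes passed in DM_AngIV against NC, and their median difference was 0.31. The differences were then 0.50 for Fbxo32 (limma adjusted p = 0.646), 0.59 for Sesn1 (0.693), 0.61 for Cited2 (0.820) and 0.46 for Foxo3 (0.773). That mean itself differs between the groups, so the effect of the group and that of the covariate cannot be told apart, and 1 gene of all 19505 passed in that fit.

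Markers of other tissue components were also read on these arrays. The mean of 9 macrophage and monocyte markers was 5.88 ± 0.25 in DM_AngIV, 5.92 ± 0.35 in DM and 5.61 ± 0.05 in NC (SD, n = 4 each), with 0 of 9 passing in any comparison and 9 of 9 differences positive against NC in either diabetic group. Its part in the results was not tested. DM replicate 4 and DM_AngIV replicate 4 each had a mean of 5.50, below all 4 NC arrays. The former had the lowest Fbxo32 and Sesn1 of the DM hearts. The latter had the highest Fbxo32, Trim63 and Sesn1 of all 12 arrays. DM replicate 1 had the highest macrophage mean, 6.35, and the highest Fbxo32 and Sesn1 of the DM hearts. The mean of 7 fibroblast markers was 6.88 ± 0.21 in DM_AngIV, 7.11 ± 0.12 in DM and 7.22 ± 0.28 in NC (SD, n = 4 each). In DM_AngIV against NC 1 of the 7 fell (0.287% of all genes). Of 8 adipocyte markers 1 rose in DM_AngIV against NC (0.728% of all genes). Of the same 8 markers 6, among them Adipoq and Plin1, were not above background on any array. In DM the atrial markers were, like Fbxo32 and Sesn1, higher in replicates 1 and 2 than in replicates 3 and 4. The atrial marker mean of 7 genes was 5.21 ± 0.10 in DM_AngIV, 6.43 ± 1.15 in DM and 6.26 ± 1.21 in NC. It ranged from 5.12 to 5.34 in DM_AngIV, 4.78 to 7.39 in DM and 5.15 to 7.78 in NC, and the atrial gene Bmp10 was not above background on any array. With this mean as a covariate 5 of the 10 genes passed in DM_AngIV against NC, the 4 above and Trp53inp1, and 204 of all 19505 genes, against 198 without it. Without the arrays with Myl7 above background, which leaves 1 DM and 2 NC arrays, Sesn1 alone of the 10 passed (difference 1.18, limma adjusted p = 0.0351), and 50 of all genes did. In that fit Fbxo32 had 0.85 (limma adjusted p = 0.0505), Cited2 1.15 (0.0990) and Foxo3 0.50 (0.208), and the lone DM array is assumed to vary like those of the other groups.

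The wider FoxO pathway was read from 5 further lists. Some genes, such as Trim54 and Trp53inp2, are in more than 1 of them, and Pdk4 and Sgk1 are also glucocorticoid-induced genes. The counts and medians of the lists are therefore not separate readings. Of 23 other FoxO target genes, 2 rose and 0 fell in DM_AngIV against NC (0.728% and 0.287% of all genes). In DM_AngIV against DM and in DM against NC 0 of them passed. Their median log2 difference was 0.40 in DM_AngIV against NC, 0.09 in DM_AngIV against DM and 0.25 in DM against NC. Pik3ip1, an inhibitor of PI3 kinase, rose by 1.28 ± 0.21 (SE; limma adjusted p = 0.0110), with 8.45, 8.81, 8.71 and 9.21 in DM_AngIV, against 7.95, 6.995, 7.52 and 7.61 in NC. DM hearts, at 8.76, 8.91, 8.14 and 8.36, were above all NC hearts too (difference 1.03, limma adjusted p = 0.123). Eif4ebp1, a repressor of cap-dependent translation, rose by 0.79 ± 0.17 in DM_AngIV against NC (limma adjusted p = 0.0396). Its call was lost without DM replicate 3, any of NC replicates 1 to 4 or DM_AngIV replicates 2, 3 or 4 (limma adjusted p between 0.0503 and 0.118). Klf15, a metabolic transcription factor, had 0.67 (limma adjusted p = 0.0621) and did not pass.

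Among the other FoxO targets, Pdk4 had its highest mean in DM, as did Txnip, Irs2, Gadd45a, Cat and Fbxo21. Pdk4, which shuts pyruvate out of the mitochondrial oxidation of glucose, averaged 8.64 ± 0.95 in DM_AngIV, 9.45 ± 0.74 in DM and 8.04 ± 0.51 in NC (SD, n = 4 each). Its difference was -0.81 in DM_AngIV against DM (interval -1.70 to 0.08, limma adjusted p = 0.682) and 1.41 in DM against NC (interval 0.52 to 2.30, limma adjusted p = 0.308). With 1 array left out, that in DM_AngIV against DM ranged from -1.12 (without DM_AngIV replicate 2) to -0.375 (without DM_AngIV replicate 1). It was -0.521 without DM replicate 1 and -1.1 without DM replicate 4. Bnip3, a mitophagy receptor, had 0.56 in DM_AngIV against NC (limma adjusted p = 0.110), 0.01 in DM_AngIV against DM (0.992) and 0.55 in DM against NC (0.308). The cyclin gene Ccng2 had 0.38 in DM_AngIV against DM (limma adjusted p = 0.643).

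Upstream of FoxO, 16 of 18 listed regulators were measured and 0 passed in any comparison. In DM_AngIV against NC, 8 had an unadjusted p below 0.05 with a positive value (8.11% of all genes) and 1 with a negative value (6.53%). Insr, the insulin receptor gene, had 0.52 (limma adjusted p = 0.0727), Akt1, the kinase that inactivates FoxO proteins, 0.39 (0.0843), and Crebbp, the acetyltransferase CBP, 0.48 (0.0905). In DM_AngIV against DM, Sgk1, a kinase that also phosphorylates FoxO proteins, had -0.44 (limma adjusted p = 0.620) and Usp7, a deubiquitinase of FoxO proteins, 0.30 (0.620). In DM against NC, Igf1r, the IGF1 receptor gene, had 0.46 (limma adjusted p = 0.302) and Insr 0.32 (0.484).

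Among muscle ubiquitin ligases and core SCF subunits, 13 were measured. In DM_AngIV against NC 1 rose (0.728% of all genes) and 0 fell (0.287%), and 0 passed in the other comparisons. That gene was Fbxo31, which encodes an F-box protein, with 7.46, 7.50, 7.61 and 7.85 in DM_AngIV, against 7.15, 7.04, 7.10 and 7.17 in NC (difference 0.49 ± 0.10, SE; limma adjusted p = 0.0330). DM hearts were also above NC hearts, at 7.56, 7.46, 7.50 and 7.44 (difference 0.38, limma adjusted p = 0.269). The call was lost without any of NC replicates 1 to 4 or DM_AngIV replicates 2, 3 or 4 (limma adjusted p between 0.0583 and 0.101). Trim54, the relative of Trim63 known as MuRF3, had 0.47 in DM_AngIV against NC (limma adjusted p = 0.117) and 0.35 in DM_AngIV against DM (0.620). Fbxo21, an F-box gene induced by FoxO factors in mouse muscle, had 0.43 in DM against NC (limma adjusted p = 0.418).

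The closest relatives of the 10 genes and the p53 pathway gave no call. Of 10 relatives, such as Sesn2, Cdkn1a and Fbxo25, 0 passed in any comparison, and their median difference was -0.05 in DM_AngIV against NC, -0.09 in DM_AngIV against DM and 0.05 in DM against NC. Trp53inp2, the relative of Trp53inp1, had -0.39 in DM_AngIV against DM (limma adjusted p = 0.600). Of 11 measured p53 pathway genes 0 passed, with a median of -0.07 in DM_AngIV against NC. Ccng1, a p53 target, had -0.23 in DM against NC (limma adjusted p = 0.521) and Mdm2, the ligase of p53, 0.17 in DM_AngIV against DM (0.759).

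**Figure D4:**
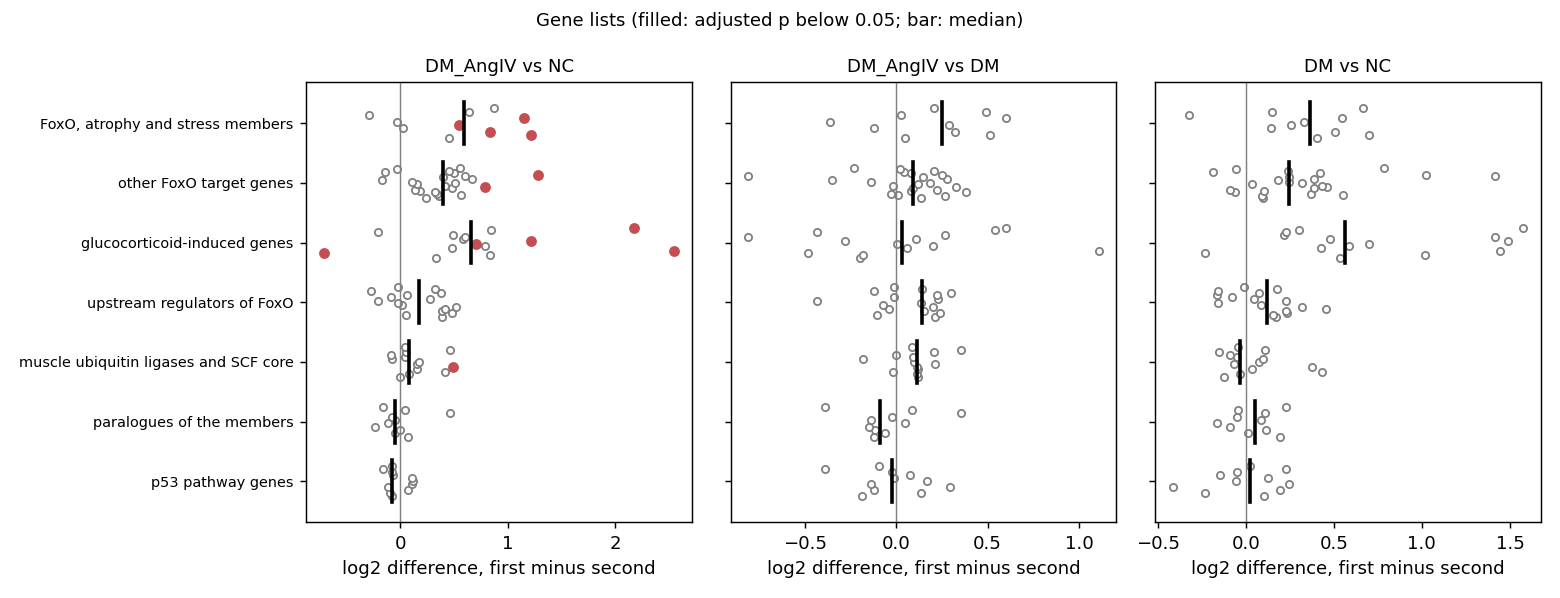
Log2 differences (horizontal axis, first group minus second) of each measured gene in 7 lists, with 1 panel per comparison, 1 point per gene and the list median as a bar. Filled points passed over all genes, and they occur in DM_AngIV against NC for 4 of the FoxO, atrophy and stress genes, 2 other FoxO targets, 5 glucocorticoid-induced genes and 1 ubiquitin ligase gene.

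The promoter sequences of 7 of the 10 genes were matched in RefSeq (GRCm38.p6), with 8 start sites in all. Fbxo32, Foxo4 and Trp53inp1 had no sequence and were not searched. Each window holds 250 bases before and 50 after the start and was searched on both strands. GTAAACA occurred in 2 of the 8, those of Trim63 and the upstream start of Sesn1 shown above, and in 3.65% of 32851 mouse promoter windows. AAACA, which is part of GTAAACA, occurred in 6 of the 8 and in 50.5% of all windows, so its presence sets few promoters apart. CAAAACA occurred in 0 of the 8 and in 6.28% of all windows. Foxo3, whose mRNA rose in DM_AngIV, had none of these letters in its window (chr10:42276646-42276945, minus strand), shown here along the gene.
Foxo3: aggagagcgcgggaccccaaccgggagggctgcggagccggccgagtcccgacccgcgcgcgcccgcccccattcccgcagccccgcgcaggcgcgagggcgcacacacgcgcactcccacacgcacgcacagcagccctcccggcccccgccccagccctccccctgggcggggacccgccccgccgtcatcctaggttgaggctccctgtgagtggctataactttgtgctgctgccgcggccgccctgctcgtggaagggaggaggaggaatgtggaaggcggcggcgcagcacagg
A match is only a match of letters, and its absence from a window says nothing of binding elsewhere.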

How the data were processed

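Total RNA of 12 samples of mouse heart muscle was measured on 1-colour expression arrays. The authors deposited a table of log2 values made with RMA, per the submitters' processing notes, with no version named there. RMA subtracts background, equalises the distributions of the arrays and summarises probes, so differences shared by all genes cannot be seen. Of the columns, 0 were left unused. Of 29129 probe sets, 19572 had 1 gene symbol, and the probe set with the highest mean stood for each of 19505 genes.

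A linear model over the 3 groups of 4 was fitted to all genes with limma 3.58.1 in R 4.3.3 (empirical Bayes, Benjamini-Hochberg adjustment, threshold 0.05), after it had been tested on simulated data. The number of arrays limits the precision, and the labels do not say more of the replicates than that they are separate samples. Python 3.11.15 with matplotlib 3.10.9 served for the plots.

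The genes and lists were chosen with earlier results of these data known. Named genes are the 10 genes, in each other pathway list the 3 with the smallest p per comparison, and the 3 nearest patterns of Foxo1 and of Fbxo32. Genes of a pathway list that passed the threshold are named as well, after their values were seen, while cell type markers that passed are only counted. Alternatives changed the variance prior, the threshold, the centring, the filter on dim genes, the arrays and the covariates. Promoter sequences and positions are from RefSeq (GRCm38.p6).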

Additional observations from a re-analysis of the deposited data

Results flagged for a closer look

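Foxo1 in DM_AngIV replicate 2 stood apart from the other arrays of its group. Its log2 level was 5.246, against 5.72 to 5.73 in DM_AngIV replicates 1, 3 and 4, and its gap to the nearest of them was 0.973 of the range of the group. This was 1 of 30 groups of 4 values examined, and chance alone gives about 1 in 20.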

How the results depend on the processing

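In DM_AngIV against DM and in DM against NC, 0 of the 10 genes passed under every alternative run. In DM_AngIV against NC 4 passed (198 of all genes), against 7 at a threshold of 0.1 (509 of all genes), 7 with a trended robust variance prior (514), 1 without the arrays with Myl7 above background (50), 0 with the glucocorticoid mean as covariate (1) and 3 to 5 with 1 array left out (81 to 302). The F test gave 3 (75 of all genes), against 0 with a replicate block (19), 0 without the Myl7 arrays (17), 0 with the glucocorticoid covariate (1) and 0 to 3 with 1 array left out (14 to 134). With dim genes left out, 6 of 9 genes passed in DM_AngIV against NC under either filter. Of all tested genes 504 passed among those above the median and 567 among those above background on at least 4 arrays. Outside the leave-one-out fits, the counts over all genes moved the same way as those of the 10 genes here. The smaller sample behind the Myl7 fit and the covariate that differs between groups belong to those alternatives, and other causes were not tested. The median difference of the 10 genes was 0.0693 in DM against NC and 0.309 in DM_AngIV against NC with that covariate, and 0.415 in DM_AngIV against DM without the Myl7 arrays. With 1 array left out it ranged from 0.514 to 0.65 in DM_AngIV against NC, 0.148 to 0.358 in DM_AngIV against DM and 0.319 to 0.435 in DM against NC. Among differences larger than their SE, signs turned for Foxo1 in DM against NC (-0.0934 without the Myl7 arrays, -0.0389 with the covariate), Trp53inp1 in DM against NC (-0.112, covariate), Fbxo25 in DM against NC (0.0254, without the Myl7 arrays), and Cited4 (0.0338) and Trp53inp2 (0.0976) in DM_AngIV against NC with the covariate. Smaller differences turned too: Trim63 in DM against NC (-0.134 without the Myl7 arrays, -0.0645 with the covariate), and, without the Myl7 arrays, Trim54 in DM against NC (-0.0722), Foxo1 in DM_AngIV against DM (0.11) and Foxo4 in DM_AngIV against NC (0.142). So did, under other settings, values that began within 0.1 of 0: Sesn3 and Cdkn1b in DM_AngIV against DM, and Foxo1, Foxo4 and Ccng1 in DM_AngIV against NC. Replicate numbers did not pair the arrays: deviations of same-numbered arrays correlated between -0.098 and 0.171, over 0.1 in 1 of 12 pairs, and the same number was the best match in 5 of 24 cases. With the replicate block 3 of the 10 genes passed in DM_AngIV against NC, Fbxo32, Sesn1 and Cited2, and Foxo3 had a limma adjusted p of 0.0519. Values near the background of 4.96, as for Foxo4 and Trp53inp1, limit what the arrays can resolve.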
